A study of Mus musculus with 2 samples.

Results

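The IFITM and Schlafen families were described in the lungs of mice carrying 4T1 tumors, a transplantable mouse mammary carcinoma. The 9 members, taken by gene symbol from the 32285 genes of the count matrices, were the interferon-induced transmembrane genes Ifitm1, Ifitm2, Ifitm3 and Ifitm6 and the Schlafen genes Slfn1, Slfn2, Slfn4, Slfn5 and Slfn8. Each was followed across the cell types that could be named in the lung and between a saline library and a nanoparticle (NP) library.

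IFITM proteins are small membrane proteins that sit in the plasma membrane and in endosomes and hinder the fusion of enveloped viruses with the cell, and IFITM3 is the best studied of them. Schlafen proteins fall into short forms, which in the mouse include Slfn1 and Slfn2, and longer forms such as Slfn5 and Slfn8 that carry a helicase-like region and reach the nucleus. Both families are known as interferon-stimulated genes in many cells, and Slfn2 is known for keeping T cells and monocytes in a resting state.

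Female BALB/cJ mice aged 12 weeks received 100000 4T1 cells and then intravenous saline or intravenous poly(lactide-co-glycolide) (PLG) particles that carried no drug, at intervals of 3 days, and lungs were taken on day 14. The design text gives 5 doses and places the first one immediately after inoculation, whereas the sample labels place it 1 day later. Both groups carried the tumor, so no tumor-free lung was compared. Each library was 1 pool, made from 4 mice according to the labels, and there was 1 library per treatment. There were therefore no replicates and no tests, and every interval below is a 95% interval that covers counting error only.

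The deposited counts are unique molecular identifiers (UMIs), each standing for 1 captured transcript molecule. The saline library held 91168129 UMIs and the NP library held 90081747. After the limits on detected genes and on mitochondrial UMIs, 8662 saline cells with a median of 6474.5 UMIs and 8333 NP cells with a median of 6008 UMIs were left, and 21 cell barcodes occurred in both libraries. Cells were clustered without any Ifitm or Slfn gene among the variable genes, and clusters were named from marker genes. Levels are in CPM, a gene's UMIs divided by all UMIs of the class and multiplied by 1000000, and 10 classes had at least 50 cells in each library. Neutrophils were the largest class, with 5637 saline and 3142 NP cells. In each neutrophil cluster 12 of 12 neutrophil markers had at least 3 pooled UMIs. The same held for the unnamed clusters 21 and 32, so this count does not set neutrophils apart.

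The members lie in 2 clusters of the genome (GRCm38, the assembly also called mm10). The 4 IFITM members fill 63088 bases of chromosome 7, at chr7:140954837-141017924. The 5 Schlafen members spread over 238868 bases of chromosome 11, at chr11:82951349-83190216. The noncoding gene Slfn5os runs antisense to Slfn5 and Gm20234 runs antisense to Slfn2, and whether the counting used strand is not given in the sources used here. Slfn5os itself was counted at 2 UMIs in all saline cells and 7 in all NP cells. Of the windows of 50 bases in the last 500 bases of Ifitm2 transcripts, 41.9% also occurred in other genes, Ifitm3 and several predicted genes. Among the predicted genes, Gm45717 overlaps Ifitm2 on the same strand. The same share was 25.5% for Slfn8, with Slfn9 and Slfn10-ps, 14.0% for Ifitm3 and 11.8% for Ifitm1. Reads of these 4 genes may thus in part be split with or lost to a near copy or, for Ifitm2, an overlapping gene. For Ifitm6, Slfn1, Slfn2, Slfn4 and Slfn5 the share was 0.0%.

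The sequence before the start site is shown for the 2 members whose pooled level differed most between the libraries in neutrophils, Slfn5 and Slfn8. The sites of Ifitm2 and Ifitm3 are shown because they hold the same letters. Capitals mark matches to the core of the interferon-stimulated response element (ISRE), searched as GAAA, any 2 bases and GAAA on both strands. The letters are from RefSeq on GRCm38.p6, are printed in the direction of the gene, and end at the base before the start site for Slfn5 and Slfn8.
Slfn5, chr11:82951852-82952101, plus strand: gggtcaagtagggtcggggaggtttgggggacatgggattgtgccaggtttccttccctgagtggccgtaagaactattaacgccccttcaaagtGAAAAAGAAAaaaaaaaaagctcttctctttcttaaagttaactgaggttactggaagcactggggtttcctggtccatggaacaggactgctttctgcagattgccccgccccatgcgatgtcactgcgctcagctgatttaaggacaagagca
Slfn8, chr11:83020811-83021060, minus strand: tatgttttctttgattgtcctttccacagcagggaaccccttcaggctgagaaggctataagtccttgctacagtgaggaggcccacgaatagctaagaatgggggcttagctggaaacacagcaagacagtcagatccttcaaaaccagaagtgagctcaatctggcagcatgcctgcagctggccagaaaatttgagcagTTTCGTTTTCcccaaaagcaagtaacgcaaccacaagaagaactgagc
Ifitm2, chr7:140955988-140956017, minus strand: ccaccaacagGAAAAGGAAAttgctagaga
Ifitm3, chr7:141010715-141010744, minus strand: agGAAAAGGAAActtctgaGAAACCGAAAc

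The Slfn5 match lies at positions -155 to -146 from the start site and runs on into a stretch of A, and the window lies inside the longer gene model of GENCODE vM21. The Slfn8 match is on the opposite strand at -48 to -39. The Ifitm2 match is at -46 to -37. Ifitm3 holds 2 matches just after its start site, at 3 to 12 and 20 to 29, inside the 5′ UTR of the first exon. The same 10 letters, GAAAAGGAAA, stand in Ifitm2 and Ifitm3. In the windows from 250 bases before to 50 bases after the start, the ISRE core occurred in 3.43% of 32817 RefSeq windows and in 4 of the 9 members, Ifitm2, Ifitm3, Slfn5 and Slfn8. The gamma-activated site TTCNNNGAA, searched the same way, occurred in 8.29% of windows and in Ifitm3 and Ifitm6. A match of letters is a description and not a site of binding, and the other members may carry such letters outside the window. The windows of Slfn1 and Slfn4 share a run of 15 bases, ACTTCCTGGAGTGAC, at -74 and -73, and Slfn2 shares the first 11 of these bases with Slfn4 and a run of 12 with Slfn1. No other pair within a family shared more than 11 bases.

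Neutrophils held the highest level of 6 of the 9 members in the saline library and of the same 6 in the NP library. These were Ifitm1, Ifitm2, Ifitm6, Slfn1, Slfn2 and Slfn4. The other 3 had their highest level elsewhere, Ifitm3 in monocytes, Slfn5 in endothelial cells, and Slfn8 in T cells of the saline library and in monocytes of the NP library.

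**Figure D1:**
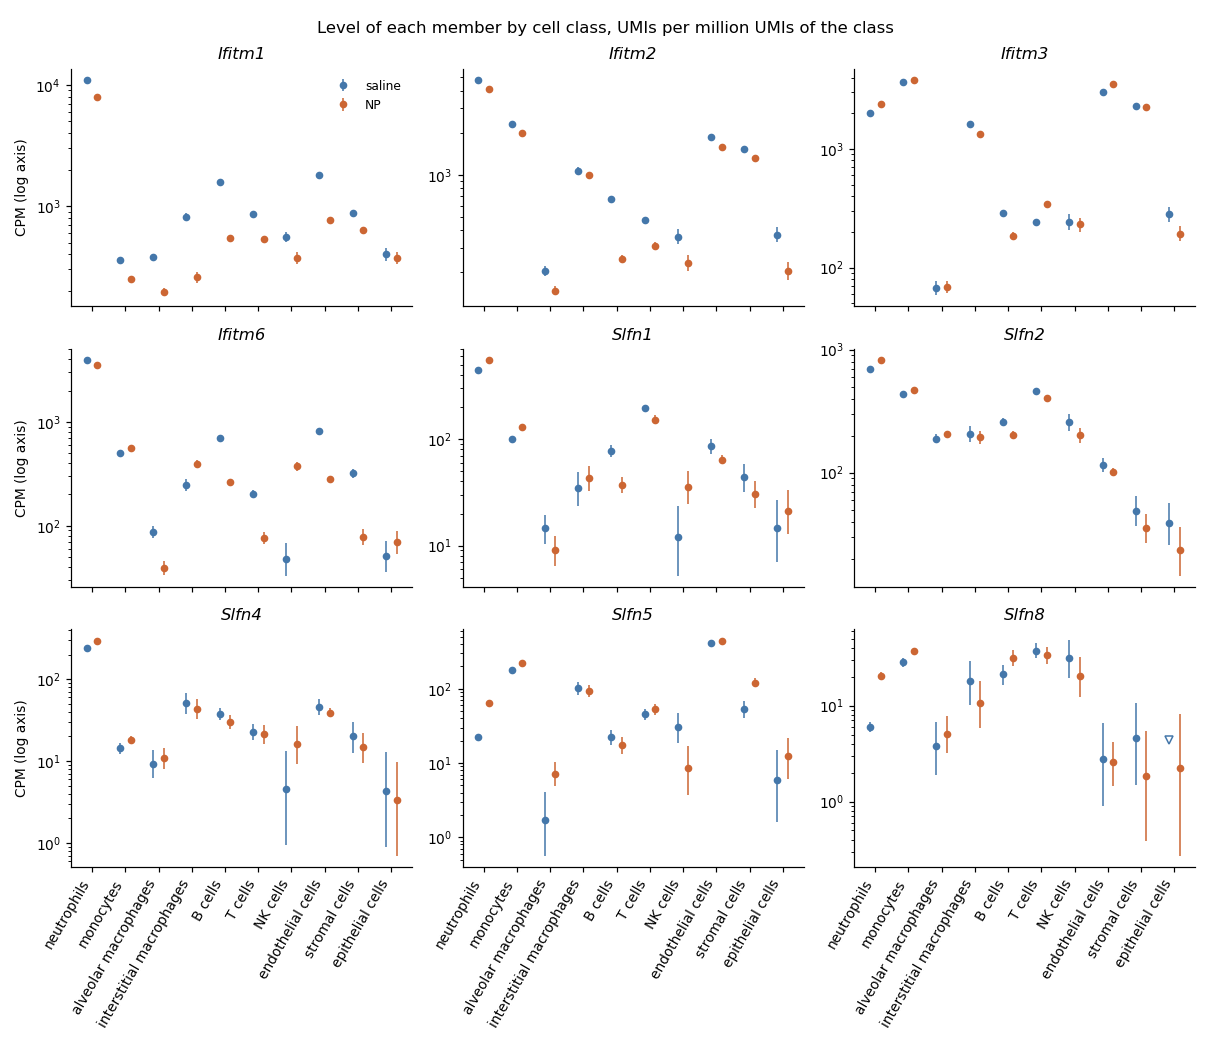
Level of each member in 10 cell classes, in CPM on a log axis, for the saline and the NP library, with 95% Poisson intervals and an open triangle at 3 UMIs where none was counted. Ifitm1 stands highest in neutrophils at 11080 CPM in the saline and 7888 CPM in the NP library, whereas Slfn5 stands highest in endothelial cells at 408.8 and 438.6 CPM.

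Ifitm1 reached 11080 CPM (95% CI 11050 to 11110) in saline neutrophils and 7888 CPM (7853 to 7924) in NP neutrophils. The next class was endothelial cells in both libraries, at 1819 CPM and 761 CPM, which left neutrophils 6.09-fold higher in the saline and 10.4-fold higher in the NP library. Over all cells, monocytes were the lowest class for Ifitm1 in the saline library at 358.5 CPM. Their interval overlapped that of alveolar macrophages at 378.9 CPM, and in the NP library alveolar macrophages were lowest at 196 CPM. The order below neutrophils did not hold without cells of at least 100 UMIs of the neutrophil marker S100a8. In the saline library monocytes then stood at 165.6 CPM, above alveolar macrophages at 99.8 CPM and epithelial cells at 119.7 CPM. Endothelial cells then stood at 174.3 CPM, below interstitial macrophages at 544.7 CPM.

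Ifitm2 had a flatter order, from 4810 CPM in saline neutrophils through 2302 CPM in monocytes, 1862 CPM in endothelial cells and 1536 CPM in stromal cells down to 203 CPM in alveolar macrophages. The NP library gave the same order for the first 5 classes, from 4092 CPM in neutrophils to 992 CPM in interstitial macrophages. The intervals of those 5 classes were apart in each library, whereas epithelial and NK cells overlapped.

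Ifitm3 was highest in monocytes, at 3648 CPM in the saline and 3834 CPM in the NP library, followed by endothelial cells at 3045 and 3520 CPM. Stromal cells came next in the saline library at 2282 CPM against 2001 CPM in neutrophils, and this order turned in the NP library, where neutrophils had 2387 CPM and stromal cells 2240 CPM. B, T, NK and epithelial cells held 184 to 340.4 CPM over both libraries and alveolar macrophages 67.2 and 68.5 CPM. Ifitm3 and Ifitm2 thus both stood high in monocytes, endothelial and stromal cells, and Ifitm3 differed in that neutrophils were not its leading class.

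Ifitm6 was a neutrophil-weighted member like Ifitm1. It stood at 3951 CPM in saline and 3522 CPM in NP neutrophils, 4.86-fold and 6.23-fold over the class that came next. That class was endothelial cells in the saline library at 813 CPM and monocytes in the NP library at 565 CPM. Without cells of at least 100 S100a8 UMIs, saline endothelial cells stood at 40.1 CPM and saline monocytes at 480.3 CPM. Monocytes were then the class next to neutrophils in both libraries. In monocytes 96.5% of saline and 94.5% of NP cells held an Ifitm6 UMI, with medians of 15345 and 14722 UMIs per cell. In T cells, with medians of 6363 and 6667 UMIs, the shares were 19.6% and 12.6%.

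Slfn1 and Slfn2 had the same 3 classes at the top, neutrophils, T cells and monocytes. Slfn1 stood at 447.9 CPM in saline neutrophils, 194 CPM in T cells and 101 CPM in monocytes, and at 548.8, 152 and 130.2 CPM in the NP library. Slfn2, whose loss is known to leave T cells and monocytes short-lived, stood at 690.4 CPM in saline neutrophils, 464 CPM in T cells and 439.5 CPM in monocytes. The T cell and monocyte intervals of Slfn2 overlapped in the saline library, and monocytes at 467 CPM stood above T cells at 405.5 CPM in the NP library. Slfn2 was also the Schlafen member with the highest share of cells with a UMI in B cells, 59.2% of saline and 52.2% of NP cells.

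Slfn4, a member known from myeloid cells, was 4.68-fold and 6.76-fold higher in neutrophils than in the next class, at 240.1 CPM in the saline and 295 CPM in the NP library. Monocytes held only 14.3 and 18.2 CPM of it. In both libraries the next class was interstitial macrophages, at 51.3 and 43.7 CPM, which overlapped endothelial cells at 46.4 and 38.9 CPM. In interstitial macrophages 36 of 46 saline and 27 of 57 NP UMIs of Slfn4 came from 1 cell each, with 2372 and 7529 UMIs of the neutrophil marker S100a8. Without cells of at least 100 S100a8 UMIs, Slfn4 stood at 8.47 and 13.9 CPM in interstitial macrophages, 7.29 and 10.9 CPM in endothelial cells and 12.02 and 13.6 CPM in monocytes, so no order among these classes held.

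Slfn5 had an order of its own. Endothelial cells led with 408.8 CPM in the saline and 438.6 CPM in the NP library, and 74.8% and 72.6% of them held a Slfn5 UMI at medians of 3954 and 3940 UMIs per cell. Monocytes followed at 179.8 and 224 CPM. In alveolar macrophages, at 17265 and 19577 UMIs per cell, only 2.40% and 4.93% of cells held one. Neutrophils took rank 7 of 10 classes at 22.6 CPM in the saline library, where they overlapped NK and B cells, and rank 5 at 63.6 CPM in the NP library, where they overlapped T cells.

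Slfn8 was low everywhere. T cells led in the saline library with 37.3 CPM and monocytes in the NP library with 37.2 CPM, and the intervals of T cells, NK cells and monocytes overlapped in the saline library, as did those of monocytes, T cells and B cells in the NP library. Neutrophils held 6.01 CPM in the saline and 20.5 CPM in the NP library. Endothelial cells, the leading class for Slfn5, held 2.79 and 2.56 CPM of Slfn8 from 5 and 16 UMIs. In saline epithelial cells no Slfn8 UMI was counted among 687327, which allows up to 5.37 CPM by the exact Poisson limit.

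Part of the level in other classes sat in few cells with high counts of S100a8, a neutrophil marker whose median was 556 UMIs in saline and 476 UMIs in NP neutrophils and 2 to 8 UMIs in the other 9 classes. Among saline B cells, 41 of 520 cells had at least 100 S100a8 UMIs, and they held 91.5% of the class's Ifitm1 and 96.6% of its Ifitm6 UMIs. In saline endothelial cells, 28 of 333 cells held 92.7% of Ifitm1 and 96.2% of Ifitm6. Cells marked as doublets were kept, and the part of doublets in these UMIs was not tested. For Slfn5 in endothelial cells the same 28 cells held 10.8% of the UMIs, and in monocytes 79 of 677 saline cells held 12.1% of Ifitm3 and 15.7% of Slfn5. Ifitm3 was still highest in monocytes and Slfn5 in endothelial cells without such cells, whereas most of the Ifitm1 and Ifitm6 UMIs of B, T, endothelial and stromal cells lay in them in both libraries.

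Free RNA gave a second bound. It was taken from barcodes with under 50 UMIs and scaled so that it could account for no more than all S100a8 of a class. Under that bound it could supply at most 2.30% and 2.81% of monocyte Ifitm3, 0.825% and 1.27% of monocyte Slfn5, and 2.13% and 3.26% of endothelial Slfn5 in the saline and NP libraries. In T cells it could supply 8.83% and 6.30% of Slfn2 and 1.75% and 2.56% of Slfn8, but 92.2% and 69.2% of Slfn4. For Ifitm3 in B cells and in NP alveolar macrophages the bound exceeded the whole level, so no level of Ifitm3 was shown to belong to those cells. In neutrophils, for which S100a8 is a marker, the bound was 100% of UMIs. It exceeded the whole level of Slfn5 and Ifitm3 in both libraries and of Slfn8 in the saline library. The bound therefore does not decide how much of those levels belonged to neutrophils.

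The comparison of NP with saline asked how the families differed between the libraries in each named class. A ratio is the log2 of NP CPM over saline CPM, and a member is called higher or lower at 1.5-fold or more, among genes with at least 100 UMIs over both libraries in the class. In neutrophils 2 of 9 members, Slfn5 and Slfn8, were called higher and none lower. Over all 8346 genes in neutrophils, 4.27% were called higher and 6.87% lower. The median ratio of the 9 members was 0.25, against -0.14 for all genes, and this shift of all genes is kept in the ratios below unless said otherwise.

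**Figure D2:**
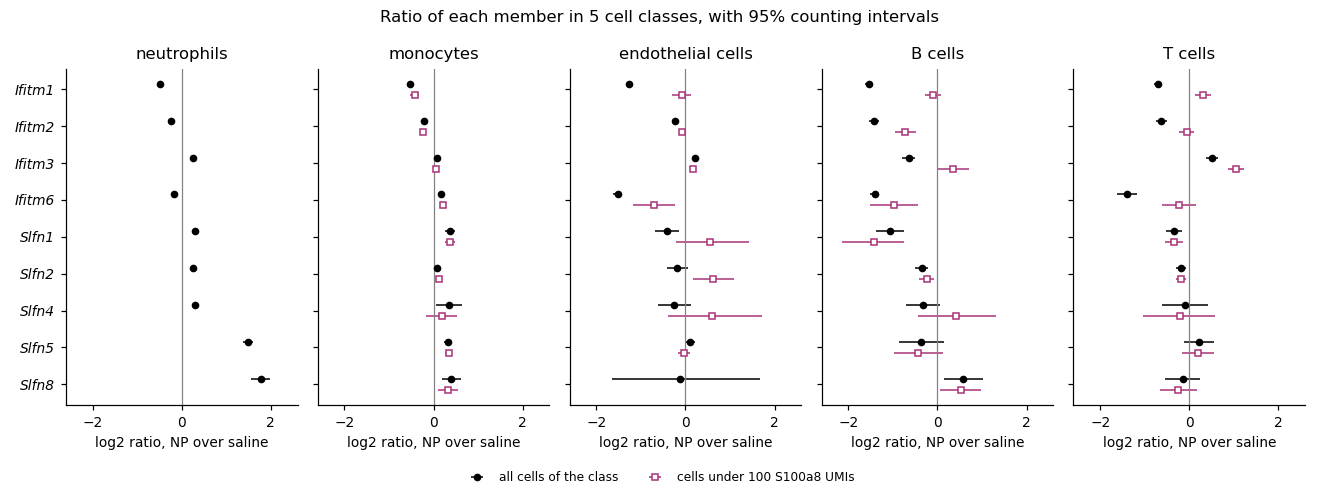
Log2 ratio of NP over saline for each member in 5 classes, with 95% counting intervals, for all cells of a class (circles) and for its cells with under 100 S100a8 UMIs (squares, classes other than neutrophils). Slfn5 at 1.49 and Slfn8 at 1.77 stand apart in neutrophils, whereas the low Ifitm1 and Ifitm6 ratios of endothelial, B and T cells move toward 0 in the squares.

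Slfn5 stood at 22.6 CPM in saline neutrophils, from 1076 UMIs, and at 63.6 CPM in NP neutrophils, from 1510 UMIs, a log2 ratio of 1.49 (95% CI 1.38 to 1.61). Free RNA held 35.86 CPM of Slfn5 in the saline and 69.66 CPM in the NP library, and its part in this ratio was not tested. A Slfn5 UMI was found in 10.2% of saline and 19.6% of NP neutrophils, with medians of 6014 and 5217 UMIs per cell. When each cell was thinned to 1000 UMIs the shares were 2.70% and 7.55%. Alveolar macrophages, a class low for Slfn5, held a UMI in 0 of 165 saline cells, which allows up to 2.21% by the exact binomial limit, and in 1.36% of NP cells at that depth.

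Slfn8 stood at 6.01 CPM in saline and 20.5 CPM in NP neutrophils, from 286 and 487 UMIs, a log2 ratio of 1.77 (1.56 to 1.99). Free RNA held 7.355 CPM of Slfn8 in the saline and 12.21 CPM in the NP library, and its part was not tested. The shares of neutrophils with a UMI were 4.38% and 12.2%, or 0.782% and 2.61% after thinning. Endothelial cells, low for Slfn8, had 0.305% and 0.168% after thinning. The Slfn5 ratio was above those of 99.1% of the genes in the class and the Slfn8 ratio above 99.5%.

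The remaining Schlafen members were higher by less than the 1.5-fold limit. Slfn1 went from 447.9 to 548.8 CPM (log2 0.29, 95% CI 0.26 to 0.32), Slfn2 from 690.4 to 817 CPM (0.24, 0.22 to 0.27) and Slfn4 from 240.1 to 295 CPM (0.30, 0.26 to 0.34). All 5 Schlafen members thus had intervals above 0, which speaks only for these 2 libraries.

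The IFITM members split. Ifitm1 was lower in NP neutrophils, 11080 against 7888 CPM, with a log2 ratio of -0.49, and Ifitm2 was lower, 4810 against 4092 CPM, at -0.23. Ifitm6 was at -0.17, from 3951 to 3522 CPM. Ifitm3 was higher, 2001 against 2387 CPM, at 0.25 (0.24 to 0.27). With the median of all genes set to 0 these ratios were -0.35 for Ifitm1, -0.09 for Ifitm2, -0.02 for Ifitm6 and 0.40 for Ifitm3, so Ifitm6 lay close to the median of all genes and Ifitm2 a little below it. The 4 IFITM members on chromosome 7 thus did not all share a direction, although the nearest neighbors Ifitm1 and Ifitm2 were both lower.

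Ifitm6, Slfn5 and Slfn8 differed far more between the 7 neutrophil clusters than between the libraries. Among the leading genes of cluster 7 were the granule genes Ltf, Ngp and Camp of immature neutrophils (542 saline and 338 NP cells). This cluster had the highest Ifitm6 level, 8568 CPM in the saline and 7810 CPM in the NP library, and the lowest Ifitm1 level, 2965 and 1106 CPM. Cluster 1, with Ccrl2, Ptgs2 and Il1b among its leading genes (1583 and 726 cells), had the lowest Ifitm6 level at 162.8 and 200.3 CPM, a 52.6-fold range in the saline library. Ifitm1 ranged only 5.24-fold, with its saline peak of 15530 CPM in cluster 9, and Ifitm2 1.42-fold. The cluster of immature neutrophils thus had the highest Ifitm6 and the lowest Ifitm1 level in both libraries.

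**Figure D3:**
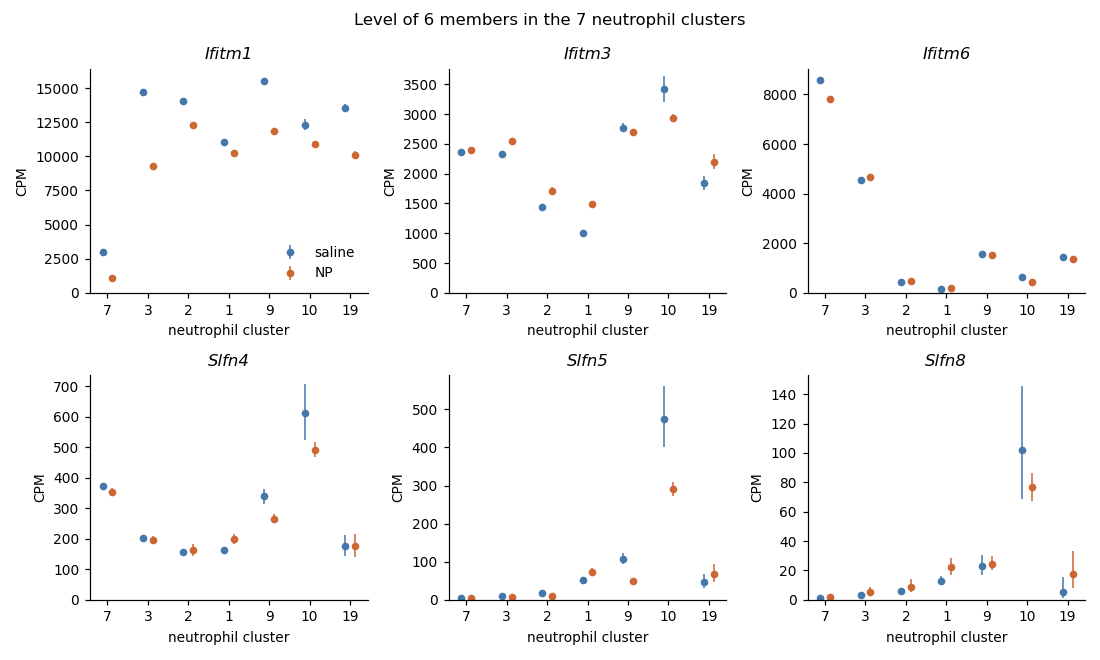
Level of 6 members in the 7 neutrophil clusters, in CPM on a linear axis that differs by panel, for the saline and the NP library, with 95% Poisson intervals. Slfn5 peaks in cluster 10 at 475.5 CPM in the saline and 291 CPM in the NP library, and Ifitm6 peaks in cluster 7.

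Slfn5 and Slfn8 were concentrated in cluster 10, which had the interferon-induced genes Cxcl10, Isg15 and Rsad2 among its leading genes and held 68 saline and 719 NP cells. Slfn5 stood there at 475.5 CPM in the saline and 291 CPM in the NP library. In cluster 7 it stood at 5.03 and 4.77 CPM, which made a 94.5-fold range over the saline clusters. Slfn8 stood at 101.9 and 76.5 CPM in cluster 10 against 1.22 and 2.10 CPM in cluster 7, a range of 83.7-fold that rests on 30 and 15 saline UMIs. Slfn1 at 1029 CPM, Slfn2 at 1433 CPM, Slfn4 at 611 CPM and Ifitm3 at 3414 CPM also had their saline maximum in cluster 10, over ranges of 2.69-fold to 3.88-fold, and so did Ifitm2 at 5384 CPM.

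Within clusters the ratios of the Schlafen members were smaller. With the cell mix of the saline library held in both, the log2 ratio of Slfn5 in neutrophils was -0.18 in place of 1.49, and Slfn5 was higher in the NP library in only 2 of 7 clusters, 1 and 19. With saline levels kept and only the mix changed, it was 2.12. Slfn8 kept a ratio of 0.57 with the mix held and was higher in 6 of 7 clusters, all but cluster 10. Slfn1, Slfn2 and Slfn4 came to 0.07, 0.05 and -0.04. With the mix held, 4 of the 5 Schlafen members were thus near or below 0. Since clusters 9 and 10 are defined by interferon-induced genes that also differ between the libraries, a change of the cells' state and a change of their number cannot be told apart.

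Ifitm1 behaved otherwise, with -0.46 when the mix was held and a lower level in the NP library in 7 of 7 clusters. The widest gap was in cluster 7, from 2965 to 1106 CPM, and next in cluster 3, from 14680 to 9301 CPM. Free RNA differed in the same direction, with 7041 CPM of Ifitm1 in the saline and 2909 CPM in the NP library. Its part in the Ifitm1 difference was not tested. Ifitm2 was also lower in 7 of 7 clusters, by little in cluster 1 (5202 to 5196 CPM). Ifitm3 was higher in 5 of 7, with 0.14 when the mix was held, and Ifitm6 in 3 of 7, with -0.05.

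Neutrophils were then placed in 4 ranges by the share of their UMIs on 2 lists of interferon-response genes that hold no member. The same limits, 0.1262%, 0.2219% and 0.4726%, served both libraries, and 1855 of 8779 neutrophils lay within 10% of a limit, so the ranges are cuts through a continuum. The highest range held 551 saline and 1644 NP cells. Median UMIs per cell in the lowest range were 8040 in the saline and 15817 in the NP library, against 4227 and 4487 in the highest.

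**Figure D4:**
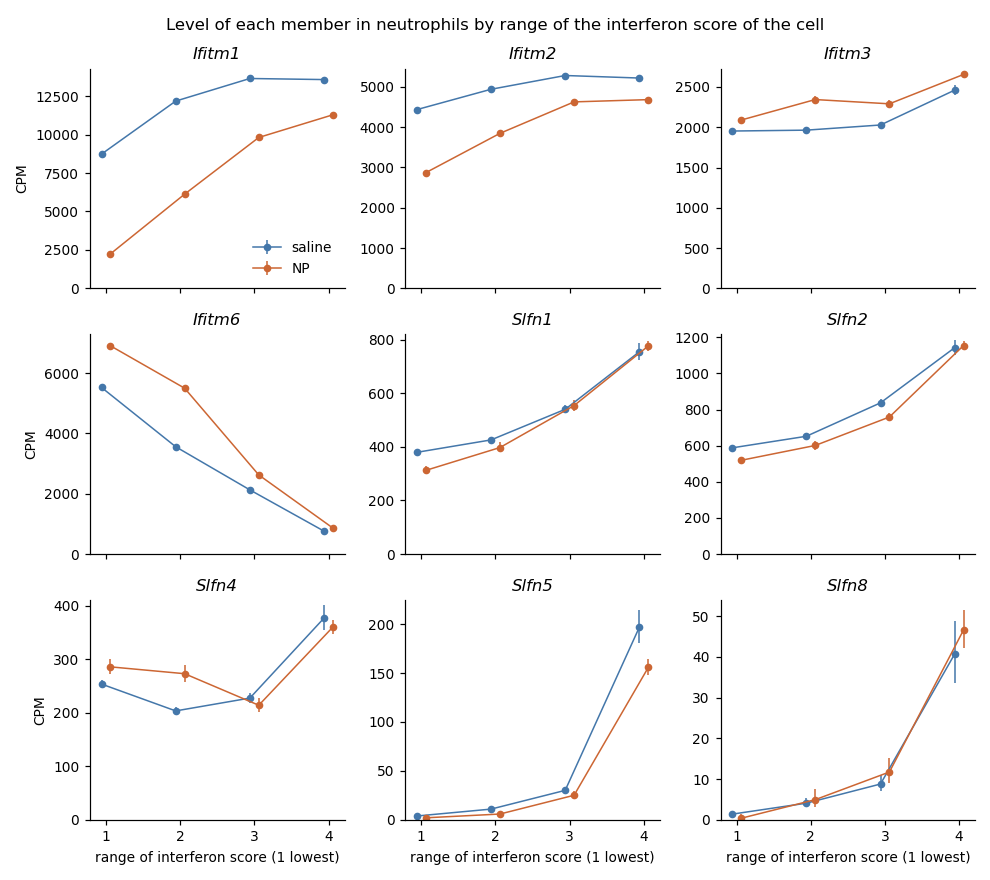
Level of each member in neutrophils, in CPM on a linear axis that differs by panel, in 4 ranges of the share of UMIs on interferon-response genes, for the saline and the NP library, with 95% Poisson intervals. Slfn5 climbs from 3.83 to 197 CPM in the saline and from 1.98 to 156 CPM in the NP library, whereas Ifitm6 goes down.

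Slfn5 stood at 3.83, 10.9, 30.04 and 197 CPM over the 4 ranges of saline neutrophils, 51.4-fold from lowest to highest. In the NP library it stood at 1.98, 5.83, 25.03 and 156 CPM, 78.6-fold, with 11 UMIs in the lowest range. Slfn5 was thus higher at each range up in both libraries. At a like score it was lower in the NP library in 4 of 4 ranges (log2 ratios of -0.95, -0.90, -0.26 and -0.34). The interval of the third, -0.58 to 0.04, held 0. The score pools a type I interferon list and an interferon gamma list. In cluster 10 the type I list took 0.986% of saline and 0.908% of NP UMIs, and the gamma list 0.521% and 1.01%. A like score is therefore not a like mix of the 2 lists.

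Slfn8 stood at 1.37, 4.07, 8.78 and 40.7 CPM in the saline library, 29.6-fold. In the NP library it stood at 0.360 CPM (95% CI 0.0437 to 1.30) from 2 UMIs in the lowest range and at 46.7 CPM in the highest. At a like score it was higher in the NP library in the upper 3 ranges, by 0.28, 0.42 and 0.20, and each of these 3 intervals held 0. In the lowest range it went the other way, on 28 saline and 2 NP UMIs. Slfn1 and Slfn2 climbed over the ranges by 1.99-fold and 1.94-fold in the saline and 2.49-fold and 2.23-fold in the NP library.

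Ifitm3 was only 1.26-fold and 1.27-fold higher in the highest range than in the lowest, from 1953 to 2461 CPM and from 2089 to 2656 CPM. Ifitm6 went the other way, from 5525 to 758 CPM in the saline and from 6907 to 860.1 CPM in the NP library. At a like score Ifitm6 was higher in the NP library in each range, by 0.32, 0.63, 0.30 and 0.18, unlike its pooled ratio. Ifitm1 climbed from 8730 to 13580 CPM in the saline and from 2238 to 11290 CPM in the NP library, and its gap between the libraries closed along the ranges, with log2 ratios of -1.96, -0.99, -0.48 and -0.27. Maturity moved with the score. Granule genes of immature neutrophils took a median of 4.98% of UMIs per cell in the lowest NP range and 1.58% in the lowest saline range, against 0.705% and 0.668% in the highest. Genes of mature neutrophils took 1.14% and 3.18% in the lowest range and 5.90% and 5.43% in the highest. Their part in the Ifitm1 and Ifitm6 levels was not tested.

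In monocytes none of the 9 members reached 1.5-fold in either direction, where 4.41% of 8914 genes were called higher and 2.05% lower. The median ratio of the members was 0.16, against -0.02 for all genes. The largest positive ratios belonged to Slfn8 at 0.40 (95% CI 0.19 to 0.61), from 28.2 to 37.2 CPM, to Slfn1 at 0.37, from 101 to 130.2 CPM, to Slfn4 at 0.35 (0.06 to 0.64), from 14.3 to 18.2 CPM, and to Slfn5 at 0.32 (0.24 to 0.40), from 179.8 to 224 CPM. For Slfn4, 1 cell held 35 of the 296 NP UMIs, and without cells of at least 100 S100a8 UMIs the ratio was 0.18 (-0.17 to 0.53). It turned negative under 4 of 15 alternatives, down to -0.52. Ifitm3 differed by 0.07, from 3648 to 3834 CPM.

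Ifitm1 had the lowest ratio in monocytes, -0.52 (-0.59 to -0.46), from 358.5 to 249.5 CPM. Cells with at least 100 S100a8 UMIs held 60.8% of it in the saline and 55.5% in the NP library, and without them the ratio was -0.42. Of the 1808 Ifitm1 UMIs then left in the NP library, 218 came from 1 cell with 0 S100a8 UMIs. An Ifitm1 UMI was found in 61.2% of the remaining saline and 41.6% of the remaining NP monocytes. With doublets removed at 1 Scrublet threshold for both libraries, a choice made after seeing the data, the Ifitm1 ratio was -1.62, with 200 detected genes as the minimum -1.39 and with Leiden resolution 0.5 -1.41, each past the 1.5-fold limit. Over 15 alternatives it ran from -1.72 to -0.40, and 12 of them lay outside the counting interval. Over these settings the Ifitm1 difference of all monocytes thus kept its sign and not its size. Within the class the sign varied, and Ifitm1 was higher in the NP library in 1 of 3 monocyte clusters. Free RNA could supply at most 81.25% of the saline and 47.64% of the NP level of Ifitm1 over all monocytes. No setting subtracted that much, and the part of free RNA in the difference was not tested.

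Slfn5 split the monocyte clusters. It stood at 198.8 CPM in saline and 291 CPM in NP cells of cluster 5, which was led by the classical monocyte genes F13a1 and Ccr2 (547 and 686 cells). In cluster 13, led by the non-classical genes Cd300e and Treml4 (102 and 400 cells), it stood at 17.2 and 24.3 CPM. The proliferating cluster 27 (28 and 38 cells) lay between at 94.5 and 156 CPM. Slfn5, Slfn1, Slfn2 and Slfn8 were each higher in the NP library in 3 of 3 clusters, and with the saline mix held the ratio of Slfn5 was 0.55 and that of Slfn1 0.55. In monocytes, unlike neutrophils, holding the mix therefore made the Slfn5 ratio larger. Ifitm3 differed little between the clusters, from 2771 to 3711 CPM in the saline library.

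Over 4 ranges of the interferon score in monocytes, of which 701 of 1801 cells lay within 10% of a limit, Slfn5 climbed 4.67-fold in the saline library, from 98.1 to 458 CPM, and 5.16-fold in the NP library, from 68.4 to 353 CPM. Slfn1 climbed 4.03-fold and 5.36-fold, Slfn8 3.30-fold and 3.27-fold, and Ifitm3 1.86-fold and 1.63-fold. At a like score Slfn5 was lower in the NP library in 4 of 4 ranges, by -0.52, -0.42, -0.32 and -0.38, and so was Ifitm3, by -0.10, -0.14, -0.18 and -0.29. The Ifitm1 ratios were -0.44, -1.59, -0.54 and 1.31, so the sign turned in the highest range (1.05 to 1.58). The subset of the monocytes also differed between the libraries at a like score. Non-classical monocyte genes took a higher median share of UMIs in the NP library in 4 of 4 ranges, 0.407% against 0.0945% in the lowest, where classical genes took 0.0682% against 0.382%. Their part in these differences was not tested.

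In endothelial cells 2 of the 8 members with at least 100 UMIs were called lower, Ifitm1 and Ifitm6, and none higher, where 3.21% of 7902 genes were called higher and 3.18% lower. Ifitm1 stood at 1819 against 761 CPM (log2 -1.26) and Ifitm6 at 813 against 283 CPM (-1.52). Without the cells that held at least 100 S100a8 UMIs, 1 of 7 members was called higher and 1 lower, where 3.30% of genes were called higher and 2.63% lower. The same ratios were -0.09 (-0.30 to 0.12) from 174 and 164 CPM and -0.72 (-1.18 to -0.24) from 40.1 and 24.4 CPM. Free RNA held 1779 CPM of Ifitm6 in the saline and 1068 CPM in the NP library, and its part in the Ifitm6 ratio was not tested. Over all endothelial cells, granule genes of immature neutrophils moved along with Ifitm1 and Ifitm6, with 10 of 11 measured list genes lower in the NP library. Their part in the result was not tested. Ifitm3 and Slfn5, the members with high levels in this class, were at 0.17 and -0.03 without those cells, with 3227 and 3621 CPM for Ifitm3 and 476 and 466 CPM for Slfn5. Slfn2 was then the member called higher, at 0.61 (0.16 to 1.09), from 47 and 287 UMIs. Free RNA could supply at most 97.4% and 73.3% of the Slfn2 level of all endothelial cells. That bound includes the S100a8 of the cells left out here and was not computed without them. It therefore does not decide how much of the remaining 34.3 and 52.3 CPM of Slfn2 belonged to endothelial cells.

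In stromal cells, where 11.2% of 4446 genes were called higher and 7.13% lower, Slfn5 stood at 52.8 CPM in the saline and 121.5 CPM in the NP library, from 58 and 195 UMIs, a log2 ratio of 1.20 (0.77 to 1.65). Without cells of at least 100 S100a8 UMIs it was 1.45 (0.97 to 1.95), from 45.8 and 124.6 CPM. The intervals of both libraries' levels did not overlap, at 40.1 to 68.2 CPM and 105 to 139.8 CPM. The class pools clusters in a different mix. Slfn5 was highest in cluster 26, which held 12 saline and 57 NP cells, at 190.9 CPM (113 to 302) and 298.5 CPM (247 to 357). In cluster 16, with 94 and 138 cells, it stood at 55.3 CPM (37.04 to 79.4) and 67.2 CPM (50.6 to 87.4). The intervals overlapped within each of these clusters, and the part of the mix in the stromal ratio was not tested.

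In B cells 5 of 9 members were called lower, Ifitm1, Ifitm2, Ifitm3, Ifitm6 and Slfn1, and none higher, where 1.63% of 6075 genes were called higher and 4.28% lower. The median ratio was -0.65, against -0.03 for all genes. Without the 41 saline and 21 NP cells of at least 100 S100a8 UMIs the median was -0.24, and 2 of 7 members, Ifitm2 and Ifitm6, were called lower, where 1.31% of genes were called higher and 2.20% lower. Ifitm1 was then at -0.10 (-0.29 to 0.09), from 162 and 151 CPM. Ifitm3 was at 0.36 (0.01 to 0.71), from 41.1 and 52.8 CPM, so the sign for Ifitm3 turned. Free RNA differed in the same directions, with 2031 CPM of Ifitm3 in the saline and 2639 CPM in the NP library. It held 3843 and 2581 CPM of Ifitm2 and 1779 and 1068 CPM of Ifitm6. The part of free RNA in these ratios was not tested, and its bound exceeded the whole Ifitm3 level of B cells. Neutrophil markers took 7.56% of the UMIs of B cell cluster 17 and 0.221% of those of cluster 6. Without cluster 17 the median was -0.31.

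In T cells 3 of 9 members were called lower, Ifitm1 at -0.70, Ifitm2 at -0.62 and Ifitm6 at -1.41, and none higher, where 2.47% of 5703 genes were called higher and 2.31% lower. Without the 29 saline and 13 NP cells of at least 100 S100a8 UMIs they were at 0.30, -0.06 and -0.22. No member was then called lower, where 3.11% of genes were called higher and 1.61% lower. Of the 518 Ifitm1 UMIs left in the NP library, 207 came from 1 cell with 4 S100a8 UMIs, so the 0.30 leans on that cell. An Ifitm1 UMI was found in 38.9% of the remaining saline and 19.6% of the remaining NP T cells. Without the cells of many S100a8 UMIs, Ifitm3 was the member called higher. It had 145 CPM in the saline and 300.4 CPM in the NP library, a log2 ratio of 1.05 (0.88 to 1.22). Single cells with 7 and 6 S100a8 UMIs held 81 of the 423 saline and 103 of the 796 NP Ifitm3 UMIs left. The share of remaining T cells with an Ifitm3 UMI was 19.55% in the saline and 23.91% in the NP library. Over all T cells the Ifitm3 ratio was 0.51 (0.37 to 0.64), from 239.8 to 340.4 CPM, and free RNA could supply at most 74.9% and 54.5% of those levels. Slfn1, Slfn2, Slfn5 and Slfn8, for which free RNA could supply at most 9.92% of the T cell level, were at -0.35, -0.20, 0.22 and -0.15, and the intervals of Slfn5 and Slfn8 held 0.

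The lists of other interferon-response genes were read beside the members. They were chosen with earlier results of these data known, so their counts are no independent evidence of a direction. Of the type I interferon list, 29 of 32 measured genes were called higher in neutrophils (median 1.45), 19 of 36 in monocytes (0.61), 10 of 26 in endothelial cells (0.45), 2 of 18 in B cells and 1 of 18 in T cells. Of the interferon gamma list, 22 of 24 were called higher in neutrophils (2.49), 26 of 29 in monocytes (1.33), 25 of 29 in endothelial cells (1.505), 7 of 20 in B cells and 9 of 24 in T cells. None of these genes was called lower in the 5 classes. The widest ratios in neutrophils were those of the chemokines Cxcl9, with 2 saline and 478 NP UMIs, and Cxcl10 at 5.82, and of the guanylate-binding protein gene Gbp5 at 4.98. The narrowest were those of the peptide transporter gene Tap2 at 0.51, of the proteasome activator gene Psme1 at 0.45 and of Dhx58, a helicase that regulates RNA sensing, at 0.11.

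In monocytes Iigp1, an immunity-related GTPase, was counted 0 times in the saline and 367 times in the NP library, at least 6.26 higher on the log2 scale with a floor of 3 saline UMIs. Gbp6 had 3 and 128 UMIs and Gbp4 had 12 and 405. Dhx58, Oas2 and Ifi209 had the lowest ratios of the lists there, at 0.10, 0.09 and 0.08. Slfn5 and Slfn8 in neutrophils, at 1.49 and 1.77, were thus between the medians of the type I and the interferon gamma lists, and the other 7 members were below both.

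Of the family genes outside the 9 members, 7 of 8 on the list were in the table. Ifitm10 was counted at 312 UMIs in all saline cells and 690 in all NP cells, a log2 ratio of 1.25 over a changed mix of cells. Ifitm5 had 136 and 59 UMIs in neutrophils (log2 -0.20, -0.67 to 0.25). Slfn9, whose transcript end shares stretches with Slfn8, had 15 and 41 UMIs in neutrophils (log2 2.45, 1.57 to 3.41), a ratio above that of Slfn8. In monocytes it had 96 and 168 UMIs (0.13, -0.24 to 0.51). Slfn3 had 44 and 77 UMIs in all cells, and Ifitm7, Slfn14 and Slfnl1 had at most 5 in either library.

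Likeness between genes was described by Pearson's r of log2(CPM + 1) over 20 points, 10 classes in each of the 2 libraries, among 8287 genes with at least 1000 UMIs. The points share libraries and free RNA, so r is a description. Ifitm1 was most like Cxcr2, the neutrophil chemokine receptor, at 0.985, then Stfa2l1 and Steap4. Ifitm6 was most like Cd177, a neutrophil surface protein gene, at 0.965, then A530064D06Rik and F630028O10Rik. Ifitm2 was most like Flot1 at 0.937, then Ifitm3 and Marcks, and Ifitm3 like Ifnar2, a chain of the type I interferon receptor, at 0.933, then Marcks and Ifitm2. Ifitm2 and Ifitm3 thus had each other among their nearest genes. Of the windows at the transcript end of Ifitm2, 41.9% also occurred in other genes, Ifitm3 among them. The part of shared reads in their r was not tested. Ifitm1 and Ifitm6 were each most like a neutrophil gene, but neither was the other's nearest member. Their r was 0.743, against 0.796 for Ifitm1 with Slfn4, 0.869 for Ifitm6 with Slfn4 and 0.784 for Ifitm6 with Ifitm2.

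Slfn1 was most like A530064D06Rik at 0.913, then B430306N03Rik and Trem3, and Slfn2 like Gmfg at 0.965, then E030030I06Rik and Stk38. Slfn4 was most like 4930438A08Rik at 0.929, then Ankrd22 and Dhrs9. Slfn5 was most like Nhsl2 at 0.883, then Ifitm3 at 0.862 and Cep85l, and Slfn8 like Sema4d at 0.936, then Arhgap15 and Arhgap4. Slfn5 was the only Schlafen member with an IFITM member among its 3 nearest genes. Between Slfn5 and Slfn8, the 2 members with the widest ratios in neutrophils, r over the classes was 0.16.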

How the data were processed

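Per the labels, female BALB/cJ lungs were pooled per treatment, and the authors used 10x Genomics capture, bcl2fastq and Cell Ranger on mm10. The labels name Cell Ranger 6.0, whereas the matrix header names version 4. The deposited values are raw counts of UMIs per gene and barcode, read by gene symbol. A barcode was taken as a cell when it held 500 to 5000 detected genes and less than 7.5% of its UMIs were mitochondrial, with median depths of 6474.5 (saline) and 6008 (NP) UMIs. Each cell was scaled to 10000 UMIs, and 2000 variable genes without Ifitm and Slfn genes, 30 principal components, 20 neighbors and Leiden clustering at resolution 1 gave 33 clusters, of which 5 stayed unnamed. Among these were cluster 11, with 134 saline and 428 NP cells and its best score for monocytes, and cluster 12, with 133 and 411 cells and its best score for endothelial cells. Unnamed cells are in no class, so the monocyte and endothelial values leave them out. No cluster was named as dendritic cells other than plasmacytoid ones. Naming parameters were set after the clusters were seen. UMIs were summed per class and library, and CPM, Poisson and Clopper-Pearson intervals, and ratios with conditional binomial intervals were computed. A count under 3 was set to 3 in a ratio. All intervals cover counting error only.

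Members and lists were chosen with earlier results of these data known. All 9 members were named, and from the interferon lists the 3 highest and 3 lowest ratios in neutrophils and in monocytes, with Ifitm and Slfn genes outside the members, and the 3 nearest genes by likeness. Scrublet's own thresholds marked 1 saline cell and 311 NP cells, so it did not work for the saline library, and no doublet was removed in the main values. Scripts were tested on simulated data. Of the gene identifiers, 99.6% were in GENCODE vM21 (GRCm38), and RefSeq gave a promoter for 9 members. Clustering used leidenalg 0.10.2 with igraph 0.11.9 and scikit-learn 1.9.0, doublets were scored through scanpy 1.11.5, and intervals came from scipy 1.17.1. Tables and plots used pandas 2.3.3, matplotlib 3.10.9 and numpy 2.4.6 under Python 3.11.15. Alternatives were other limits on genes and mitochondrial UMIs, doublet removal, other clusterings, the family genes among the variable genes, cells weighted equally, shared barcodes removed and the saline mix held.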

Additional observations from a re-analysis of the deposited data

Results flagged for a closer look

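The log2 ratio of Ifitm6 differed in direction between classes, and the difference between the classes was not tested, since each treatment had 1 library. It was called lower in alveolar macrophages at -1.15, in B cells at -1.41, in T cells at -1.40, in endothelial cells at -1.52 and in stromal cells at -2.02. It was called higher in interstitial macrophages at 0.67 and in NK cells at 2.95. In NP NK cells 305 of 344 Ifitm6 UMIs came from 1 cell with 5000 S100a8 UMIs, and in NP interstitial macrophages 207 of 515 came from 1 cell with 6650. In saline stromal cells 266 of 351 came from 1 cell with 5990 S100a8 UMIs, and in saline alveolar macrophages 136 of 253 came from 1 cell with 2735. Without cells of at least 100 S100a8 UMIs the ratios were -0.49 in interstitial macrophages, 0.07 in NK cells, 0.18 in stromal cells and -0.45 in alveolar macrophages, none of which was called, with under 100 UMIs left in NK and stromal cells. It remained lower in B cells at -0.96, from 28.7 and 14.7 CPM, and in endothelial cells at -0.72, from 40.1 and 24.4 CPM. Free RNA held 1779 CPM of Ifitm6 in the saline and 1068 CPM in the NP library, and its part in these ratios was not tested. The highest cell held less of the saline total in T cells (173 of 670 UMIs), in endothelial cells (416 of 1456) and in B cells (380 of 2399).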

How the results depend on the processing

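No paired analysis was possible because each treatment had 1 library and the labels carry no replicate numbers. The ratio of Slfn5 in neutrophils, 1.49, was 1.46 to 1.65 under 15 alternatives and -0.18 with the saline mix held. In the saline library, where this was recomputed, neutrophils were the highest class for 6 of 9 members under 15 alternatives. The median ratio of the members in neutrophils, 0.25, was 0.34 with a mitochondrial limit of 5%, 0.34 at resolution 2, 0.40 with the all-gene median at 0 and 0.36 with cells weighted equally. In monocytes it was 0.16, and 0.073 from 200 genes, 0.0465 with Scrublet, 0.0423 with 1 shared threshold, 0.0482 at resolution 0.5, 0.0659 at resolution 2, 0.0902 with own scores and 0.065 without shared barcodes. In endothelial cells it was -0.24, and -0.57 from 200 genes, -0.77 from 800 genes, -0.55 and -0.52 with limits of 5% and 10%, -0.74 with Scrublet, -0.10 with the shared threshold, -0.65 and -0.0884 at resolutions 0.5 and 2, -0.55 with family genes variable, -0.49 with own scores, -0.16 with equal weights, -0.65 without shared barcodes and 0.0669 without cells of at least 100 S100a8 UMIs. In B cells it was -0.65, and -0.32 and -0.80 with limits of 5% and 10%, -1.54 with Scrublet, -0.85 with the shared threshold, -0.41 at resolution 2, -0.34 with own scores, -0.47 with equal weights, -0.31 without cluster 17 and -0.24 without cells of many S100a8 UMIs. In T cells it was -0.20, and -0.98 with Scrublet and -0.42 with the shared threshold. The shared threshold and the removal of clusters or of cells by S100a8 were chosen after seeing the data. The causes were not tested. Of the single-member values, 187 stayed within the main value's counting interval, 91 moved outside it and 1 was reversed. The sign also turned for Slfn4 in neutrophils with the mix held (-0.04), for Ifitm6 in monocytes under 3 of 15 alternatives and for Slfn4 in monocytes under 4 of 15.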

Other observations

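Plasmacytoid dendritic cells had under 50 cells in each library and stood outside the comparisons, with 18 saline and 33 NP cells. Slfn5 stood there at 323.8 CPM in the saline and 80.02 CPM in the NP library, and Slfn8 at 114.6 and 55.01 CPM.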
